A study of Rattus norvegicus with 72 samples.

Results

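The high fat (HF) liver 6 h after partial hepatectomy (PHx), an operation that takes out a portion of the organ, was described from 8 of the 72 arrays of the series, those titled as HF control and HF PHx of the 6 h cohort. They come from 4 of 36 rats. In every rat the liver taken at surgery (0 h) gave the control array and the regrowing remnant, collected 6 h later, gave the PHx array. The rats of this group and their controls received no other named treatment. The series also holds ethanol (EtOH) and pair-fed carbohydrate (CHO) diets, with 8 arrays each at 6 h, and cohorts at 1 and 24 h. The diet names of the sample titles and diet tags were used. For the 8 HF arrays the source names and descriptions name the carbohydrate control instead, and which label is right was not tested. The sources used here do not give the composition of the diets, how long they were fed, the strain, age and sex of the rats or the clock time of the operations. No sham-operated rats are listed, so a response is the whole change within an animal over 6 h, surgery, anaesthesia and time of day included. The submitters marked the control array of animal 1 and the PHx array of animal 2 as outliers. Results are therefore given for all 4 pairs and for the 2 unmarked pairs, animals 3 and 4.

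When part of the liver is lost, the hepatocytes that remain leave quiescence and divide. Kupffer cells, the macrophages of the liver, release interleukin 6 and related cytokines that act through the transcription factor STAT3. These cytokines prime the cells for the cycle, and growth factors then drive them through it. Before any DNA is made, a hepatocyte builds ribosomes, raises nucleotide and polyamine synthesis, turns on acute phase proteins and lowers part of its specialised metabolism. The hours before DNA synthesis are known as the prereplicative phase.

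Signals are on a log2 scale, so that a difference of 1 is a doubling. Array medians lay between 4.61 and 4.71. All 14 measured hepatocyte markers were far above these medians in every control (lowest level 10.0), with albumin (Alb) at 13.4 to 13.6 in the 8 arrays. The response of animal 2 stood apart. Its differences between PHx and control had a standard deviation of 0.74 over genes, against 0.482 to 0.533 in the other animals, and 2483 genes were lower by at least 1.5-fold, against 978 to 1222. Its PHx array correlated with the other PHx arrays at a mean r of 0.975, against 0.984 to 0.985 for the rest. The marked control of animal 1 did not stand apart by this measure (0.991, with 0.988 to 0.991 in the other controls). Both marked pairs were scanned on 1 day and both unmarked pairs on another, so the mark and the scan day cannot be told apart. Each response is a difference within 1 scan day.

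Across the 4 pairs, 2617 of 14506 genes changed (18.0%) in limma with the animal as block, at a Benjamini-Hochberg adjusted p under 0.05 (the adjusted p given throughout). Of these, 1231 rose (8.49%) and 1386 fell (9.55%). The counts given for each gene list below are to be read beside these shares. The median log2 difference of all genes was 0.011. At least 2-fold changes were seen in 371 genes that rose and 410 that fell, and at least 4-fold changes in 56 and 43. All but 7 of the called genes moved the same way in every animal. In the 2 unmarked pairs, tested with the spread of the 27 animals of the series that have no marked array, 2800 genes changed (19.3%), of which 1451 rose (10.0%) and 1349 fell (9.30%). Both tests called 2095 genes in the same direction, 80.1% of the first set (978 rose, 6.74%, and 1117 fell, 7.70%), and 0 in opposite directions. The 2 unmarked pairs are part of the 4, so the tests are not independent and opposite calls were hardly possible. Animal 2 had the largest change of the 4 animals in 1213 of the 2617 genes and the opposite direction in 4. The number of calls changed when 1 animal was left out. Such a fit also has fewer pairs, so a call can end while the log2 value stays much the same. Without animal 1, 3 or 4 it was 1436, 1177 and 1597, and without animal 2 it was 3376. Within the scan day of animals 1 and 2 it was 325, and within that of animals 3 and 4 it was 2965. A p here measures the spread between animals.

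**Figure D1:**
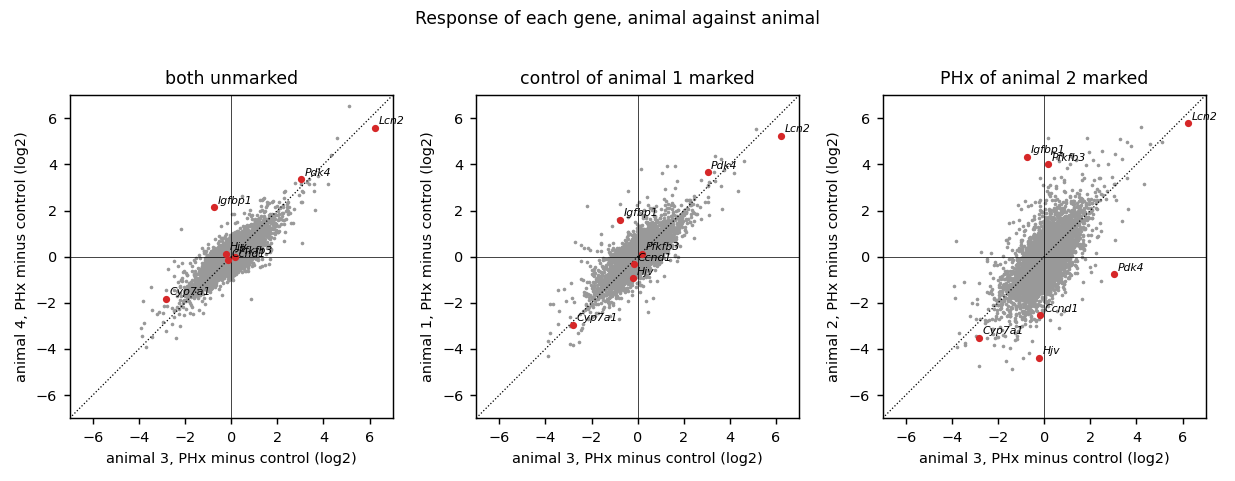
Log2 difference, PHx minus control, of each of 14506 genes in animal 3 (x axes) against animals 4, 1 and 2 (y axes), 1 grey point a gene, with 7 genes in red and the line of equality dotted. Points lie close to the line for animals 4 and 1 (r over genes, which are not independent replicates, 0.785 and 0.761) and spread widely for animal 2 (0.61), where Pfkfb3 and Igfbp1 lie above and Pdk4, Hjv and Ccnd1 below.

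The promoters of 4 genes, counted here as 250 bases before the RefSeq gene start on build GRCr8, show the letters searched for beside the inflammatory, growth and acute phase results. Capitals mark the matches on either strand to an NF-kB type sequence (3 G, any 2 bases, 3 T, 2 C) in Cxcl1 and Il1rn, to CACGTG (E-box, bound by MYC and by clock factors) in Mybbp1a, and to TTCNNNGAA (STAT type) in Fgb.
Cxcl1 promoter, chr14:17479322-17479571, minus strand: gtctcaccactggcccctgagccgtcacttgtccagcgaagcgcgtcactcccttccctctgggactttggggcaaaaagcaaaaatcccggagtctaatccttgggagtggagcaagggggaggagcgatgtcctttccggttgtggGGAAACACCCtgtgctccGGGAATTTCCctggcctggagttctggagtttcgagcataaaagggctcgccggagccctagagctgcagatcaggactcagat
Il1rn promoter, chr3:27520072-27520321, plus strand: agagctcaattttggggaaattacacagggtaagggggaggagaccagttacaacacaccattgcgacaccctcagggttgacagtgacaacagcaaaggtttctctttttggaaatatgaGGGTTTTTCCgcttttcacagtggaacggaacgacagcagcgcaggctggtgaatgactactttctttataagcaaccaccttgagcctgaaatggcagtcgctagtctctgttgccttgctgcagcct
Mybbp1a promoter, chr10:57555208-57555457, plus strand: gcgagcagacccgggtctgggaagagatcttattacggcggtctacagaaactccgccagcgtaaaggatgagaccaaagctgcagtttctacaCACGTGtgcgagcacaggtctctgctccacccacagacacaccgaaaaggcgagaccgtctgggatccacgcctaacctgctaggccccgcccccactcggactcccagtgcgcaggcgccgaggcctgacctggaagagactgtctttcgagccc
Fgb promoter, chr2:170700876-170701125, minus strand: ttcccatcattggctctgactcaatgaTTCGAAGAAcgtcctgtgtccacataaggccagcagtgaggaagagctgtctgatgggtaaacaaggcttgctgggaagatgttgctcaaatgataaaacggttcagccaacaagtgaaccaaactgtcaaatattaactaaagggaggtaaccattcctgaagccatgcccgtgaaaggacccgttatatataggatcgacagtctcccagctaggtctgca
Of 11968 measured genes with such a window, 1.48% held the NF-kB letters, 6.92% the E-box and 6.62% the STAT letters. Among list members the NF-kB letters were in 7 of 23 promoters of NF-kB targets and chemokines (30.4%), the E-box in 8 of 43 of ribosome biogenesis (18.6%) and the STAT letters in 5 of 21 of rising acute phase proteins (23.8%). Other lists held more: the STAT letters were in 6 of 15 promoters of bile acid synthesis and transport (40%) and in 3 of 11 of lymphocyte markers (27.3%), of which 0 were called. The E-box was in 3 of 11 of sterol sensing (27.3%), 4 of 17 of aminoacyl-tRNA synthetases (23.5%) and 5 of 23 of immediate early genes (21.7%). The NF-kB letters were next most frequent in bile acid genes (2 of 15, 13.3%). The E-box was found in 10.3% of 1033 windows of genes that rose and 8.64% of 1169 of genes that fell. The STAT letters were in 6.87% and 4.96%, and the NF-kB letters in 1.45% and 1.54%. The D-box TTATGTAA was in 1 of 15 clock promoters and TCACNCCAC, a sterol element form, in 0 of 14 cholesterol synthesis promoters, against 0.71% and 0.953% of all windows. These matches describe letters in a window and are not binding sites shown here.

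Acute phase genes gave the largest rises. Of 27 measured acute phase proteins of the rising class, 15 rose and 0 fell (median log2 0.39), and in the unmarked pairs 16 rose and 1 fell. Lcn2 (probe set 10844331), a siderophore-binding protein that withholds iron from bacteria, stood at log2 signals of 5.48, 5.62, 5.26 and 5.63 in the controls of animals 1 to 4 and at 10.73, 11.39, 11.49 and 11.21 in their remnants. The groups did not overlap. The rise was 52.3-fold (log2 5.71 ± 0.164 SE, n = 4 pairs, adjusted p = 0.000142), and log2 5.91 in the unmarked pairs (adjusted p = 7.59e-13). A2m (probe set 10858408), the broad protease inhibitor that rats make in inflammation, went from 6.17, 6.96, 7.39 and 5.00 to 11.73, 11.94, 12.51 and 11.54. Its controls differed by over 2 log2 units between animals, and every remnant was above every control. A2m rose 46.9-fold (log2 5.55 ± 0.253, adjusted p = 0.000364). Orm1, a plasma carrier of drugs, rose by log2 2.40, Lbp, which binds bacterial lipopolysaccharide, by 1.43, and Lrg1 by 1.07. Haptoglobin (Hp) and fibrinogen beta (Fgb), already at 12.45 to 12.54 and 11.98 to 12.11 in controls, rose by 0.37 and 0.41. Their calls ended without animal 1 (0.36 and 0.41), 3 (0.38 and 0.44) or 4 (0.34 and 0.37).

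Signalling genes of the interleukin 6 family rose for 6 of 23 and fell for 1 (median 0.17, and 5 and 1 in the unmarked pairs). Socs3 (probe set 10749372), the feedback inhibitor of STAT3 signalling, was at 4.99, 5.28, 5.56 and 5.31 in controls and 8.32, 9.30, 8.32 and 8.52 in remnants. Animal 2 was the highest remnant. The rise was 10.1-fold (log2 3.33 ± 0.197, adjusted p = 0.000494). Osmr, a receptor subunit for oncostatin M, rose 14.3-fold (3.84), and Stat3 itself 5.13-fold (2.36). Pim1, a kinase gene that STAT3 induces, rose by 0.95. The acute phase proteins of the falling class fell for 5 of 13 and rose for 0 (median -0.27, unmarked pairs 6 and 0). Igfals, the partner of IGF1 in blood, fell by 1.38 on the log2 scale and Serpina6, the cortisol-binding globulin, by 0.83. Transthyretin (Ttr) differed by -0.22 and was not called (adjusted p = 0.159).

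**Figure D2:**
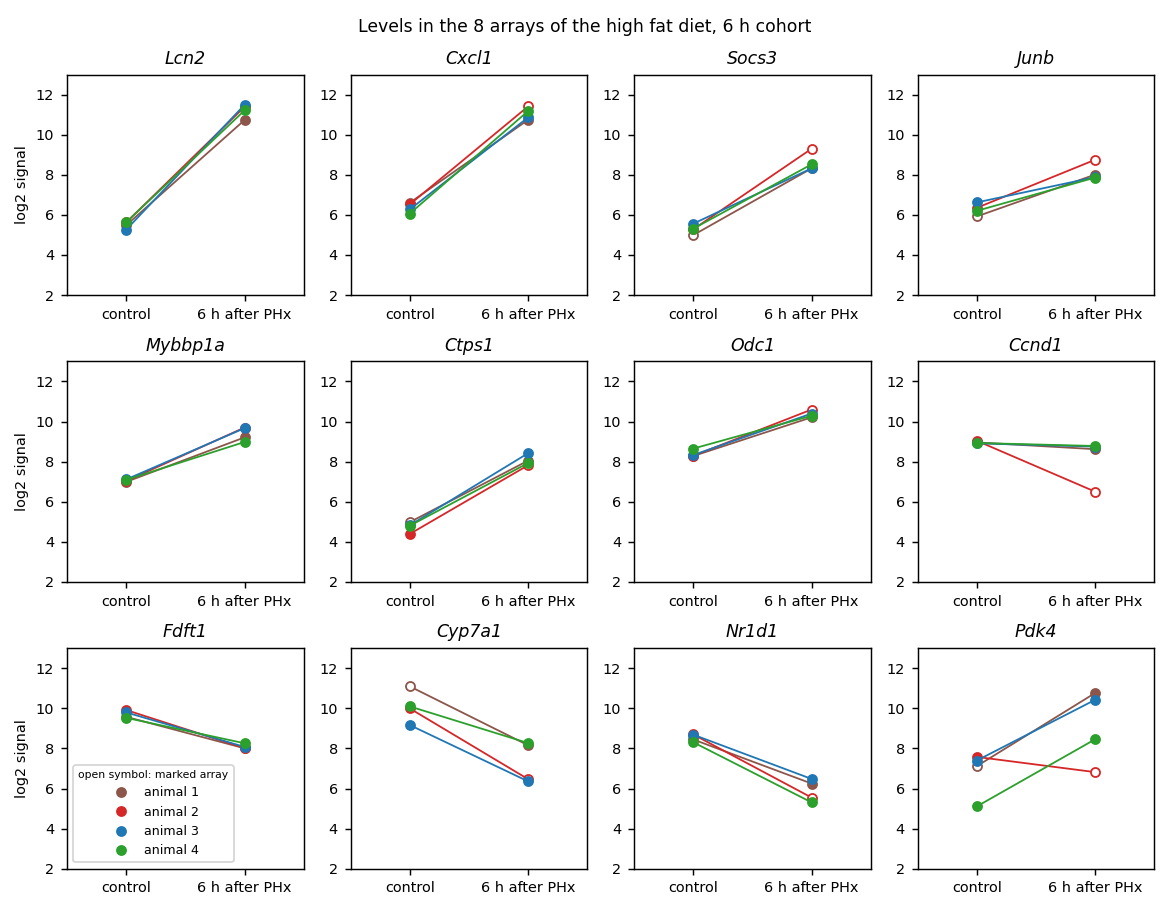
Log2 signal of 12 genes (y axes) in the control and the PHx array (x axes) of the 4 animals, 1 line an animal, with open symbols for the 2 marked arrays. Lines run nearly parallel for Lcn2, Cxcl1, Ctps1, Odc1 and Fdft1, whereas animal 2 departs in Ccnd1 (-2.54 against -0.33 to -0.15) and Pdk4 (-0.76 against 3.03 to 3.65).

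Among 29 NF-kB targets and chemokines, 4 rose and 0 fell (median 0.28), not far from the share of all genes that rose (8.49%). The 4 were Cxcl1, Sod2, Il1rn and Icam1, and all were called in the unmarked pairs as well, where 5 rose and 1 fell. Cxcl1 (probe set 10775900), a neutrophil attractant, went from 6.60, 6.52, 6.27 and 6.06 to 10.74, 11.41, 10.86 and 11.18. The 2 groups lay over 4 log2 units apart. The rise was 25.8-fold (log2 4.69 ± 0.169, adjusted p = 0.000253). Sod2, the mitochondrial superoxide dismutase, rose by 1.71 and Icam1, an adhesion molecule for leukocytes, by 0.95. Il1rn, the receptor antagonist of interleukin 1, stood at 6.91 to 7.10 in the remnants of animals 1, 3 and 4 and at 9.84 in animal 2. It rose by 1.93 ± 0.451 (adjusted p = 0.0293), by 1.33 in the unmarked pairs, and was not called without animal 1 (2.17), 3 (2.23) or 4 (2.02). Without animal 2 the rise was 1.28. Interleukin 1 beta (Il1b) differed by 0.88 and was not called (adjusted p = 0.104). Of 22 interferon response genes 6 fell and 1 rose (median -0.15), and in the unmarked pairs 4 fell and 1 rose, with 3 falls called in both tests. Mx1, an antiviral GTPase, fell by 0.99 and Psmb9, an immunoproteasome subunit, by 0.77. Mx1 was not called without animal 3 (-0.98).

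Of 33 immediate early genes, the transcription factors and phosphatases that answer a stimulus first, 14 rose and 1 fell (median 0.70). In the unmarked pairs 10 rose and 1 fell, with a median of 0.34. The medians were 0.76 and 1.02 in animals 1 and 2 and 0.34 in both animals 3 and 4. Junb rose by 1.85 ± 0.191 (adjusted p = 0.00181), at 8.75 in the remnant of animal 2 and 7.86 to 8.01 in the others. Dusp6, which switches off ERK, rose by 1.64, Gadd45a by 1.36 and Btg1, an antiproliferative gene, by 1.13. Jun rose by 1.10 and Atf3 by 1.44. Both calls ended at similar log2 values when single animals were left out (Jun 1.13 without animal 3 and 1.11 without animal 4, Atf3 1.47 and 1.55 without animals 1 and 3). Atf3 was not called in the unmarked pairs (0.9, adjusted p = 0.067). Dusp1 fell by 1.32. Myc (probe set 10896814), the growth regulator, moved from 5.11, 6.74, 6.34 and 5.27 to 6.83, 8.50, 5.91 and 6.59. It was higher in animals 1, 2 and 4 and lower in animal 3, and was not called (1.09, adjusted p = 0.0904; unmarked pairs 0.44, adjusted p = 0.622). Fos differed by 0.25 (adjusted p = 0.232). Egr1 was at 5.78 to 6.03 in 3 remnants and at 8.22 in that of animal 2, and its difference changed sign without animal 2 (0.32 against -0.30).

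Glucocorticoid targets were called in the falling direction for 3 of 13 and in the rising direction for 0 (median -0.13), and for 6 and 1 in the unmarked pairs (-0.64). Tsc22d3, also known as GILZ, fell by 1.64 ± 0.110 (adjusted p = 0.000601). The receptor gene Nr3c1 fell by 1.18, and its call ended without animal 3 (-1.24).

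Genes for making ribosomes rose almost as a whole list, 45 of 48 with 0 falling (median 1.10), and 42 of 48 in the unmarked pairs (1.05). The medians of single animals were 0.96, 1.43, 1.16 and 0.93. Mybbp1a (probe set 10735455), a nucleolar regulator of rRNA synthesis, went from 6.99, 7.03, 7.11 and 7.09 to 9.21, 9.70, 9.67 and 8.98. Every control lay below every remnant, and the controls were nearly equal. The rise was 5.04-fold (log2 2.33 ± 0.148, adjusted p = 0.000573). Nop56 and Nop58, core proteins of the particles that methylate rRNA, rose by 2.29 and 2.24. Nucleophosmin (Npm1) and nucleolin (Ncl), the abundant nucleolar chaperones, rose by 1.11 and 1.17. Members in the assembly of the large subunit, Brix1 and Mrto4, rose by 1.54 and 1.11. The ribosomal proteins themselves moved little. Of 34, 6 rose and 0 fell (median 0.20), and 10 rose in the unmarked pairs. Rpl4, one of the 6, rose by 0.49, and its call ended without animal 1 (0.52), 3 (0.49) or 4 (0.39).

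Translation factors, tRNA synthetases, nucleotide synthesis and heat shock proteins had many members that rose, whereas proteasome, endoplasmic reticulum and amino acid transporter genes had few over 4 pairs or went both ways. Translation factors rose for 17 of 25 and fell for 1 (median 0.57, unmarked pairs 18 and 1), with Eif2b3, a subunit of the exchange factor that recharges eIF2, at 1.89 and Eif2s1, the eIF2 alpha subunit, at 1.30. Aminoacyl-tRNA synthetases rose for 13 of 19 and fell for 0 (0.83, unmarked pairs 15 and 0), with Wars1 at 2.09 and Yars1 at 1.58. Nucleotide synthesis rose for 11 of 18 and fell for 0 (0.79, unmarked pairs 11 and 1). Ctps1 (probe set 10879402), which makes CTP, had controls of 4.98, 4.39, 4.82 and 4.80 and remnants of 8.05, 7.82, 8.42 and 7.93. The 4 differences ranged from 3.07 to 3.60. It rose 9.9-fold (3.31 ± 0.123, adjusted p = 0.000253). The control of animal 2 was under the array medians, so the size in that animal is uncertain. Umps and Cad, of pyrimidine synthesis, rose by 1.45 and 1.40. In polyamine metabolism 5 of 10 rose and 2 fell (0.68, unmarked pairs 4 and 2). Odc1, the first enzyme of the pathway, rose by 1.99 ± 0.130 (adjusted p = 0.000577) and spermidine synthase (Srm) by 2.12, while Oaz2, an antizyme that promotes ODC breakdown, fell by 1.43. Cytosolic and mitochondrial heat shock proteins rose for 10 of 17 and fell for 0 (0.42, unmarked pairs 11 and 0), among them Hsp90aa1 (1.26) and Cct3 (0.92), a subunit of the chaperonin that folds actin and tubulin. Proteasome subunits rose for 4 of 30 across 4 pairs and for 15 of 30 in the unmarked pairs (0.18 and 0.32), and the median in animal 2 was -0.19 against 0.14 to 0.36 in the others. Of 24 endoplasmic reticulum chaperones and stress genes 5 rose and 4 fell (0.09, unmarked pairs 4 and 5), and asparagine synthetase (Asns), a target of ATF4, rose 2.83-fold. Amino acid transporters rose for 2 of 18 and fell for 1 (0.15, unmarked pairs 2 and 2), and Slc3a2, the heavy chain of several exchangers, rose by 1.13. Over 4 pairs the rises among proteasome and amino acid transporter genes were near the share of all genes (8.49%).

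**Figure D3:**
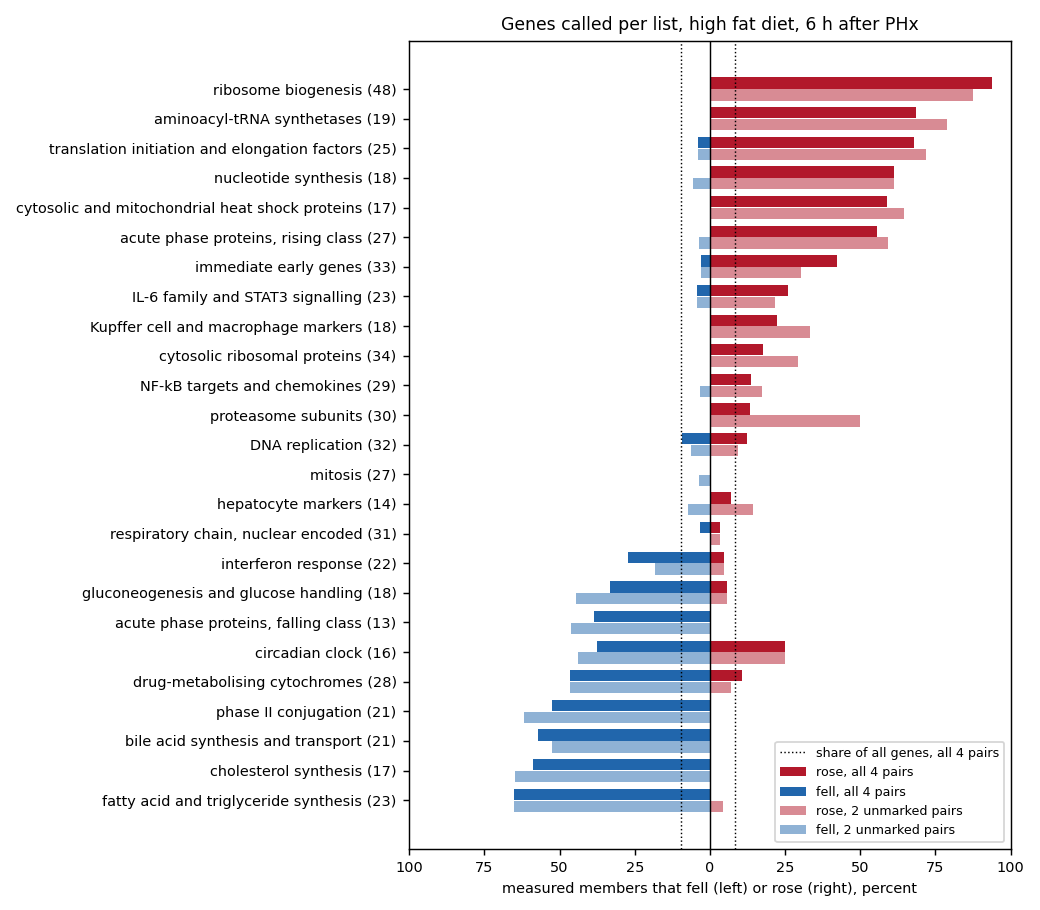
Percent of measured members (x axis) that rose (red, right) or fell (blue, left) in 25 gene lists, with the number measured in brackets, for all 4 pairs (dark bars) and for the 2 unmarked pairs (pale bars). Dotted lines mark the share of all 14506 genes that rose (8.49%) or fell (9.55%) in 4 pairs. The longest bars are those of ribosome biogenesis to the right and of fatty acid and cholesterol synthesis to the left.

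Cell cycle genes did not move as lists. Of 27 mitosis genes 0 were called in limma in 4 pairs (median -0.19), with 24 of the 27 at a mean control level under the middle of the array medians (4.62), and in the unmarked pairs 1 fell. Of 32 DNA replication genes 4 rose and 3 fell (-0.03, unmarked pairs 3 and 2). Pcna, the sliding clamp, rose by 0.55 but was not called in the unmarked pairs (0.57, adjusted p = 0.282). Rrm2, a subunit of ribonucleotide reductase, rose by 1.04 and by 1.49 in the unmarked pairs. Rpa1, which coats single-stranded DNA, fell by 1.40. Without animal 1 or 4 the call of Pcna ended (0.56 and 0.51), and without animal 3 or 4 that of Rrm2 (0.80 and 0.98). G1 cyclins, kinases and inhibitors rose for 2 of 18 and fell for 0 (0.02, unmarked pairs 1 and 0), near the share of all genes that rose (8.49%). Cdkn1a (probe set 10828827), the kinase inhibitor p21, was at 5.53, 5.38, 5.24 and 5.63 in controls and 7.01, 9.58, 7.37 and 7.73 in remnants. Animal 2 was the highest, and no group overlap was seen. It rose 5.55-fold (2.47 ± 0.408, adjusted p = 0.00865; 2.11 in the unmarked pairs). Ccnd1 (probe set 10727260), the cyclin of mid G1, was at 8.96, 9.04, 8.91 and 8.93 in controls and at 8.62, 6.50, 8.75 and 8.78 in remnants. Its level fell short of the controls by over 2 log2 units in animal 2 alone, and it was not called (-0.80, adjusted p = 0.262; unmarked pairs -0.16, adjusted p = 0.842). Of 16 p53 targets 3 rose and 2 fell (0.07, unmarked pairs 3 and 2). Cdkn1a is among them, as are Ccng1, which rose by 1.47 (1.44 without animal 1 and 1.53 without animal 3, where the calls ended), and Sesn1, which fell by 1.22.

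Growth signals changed gene by gene. Of 23 hepatocyte mitogens, their receptors and members of the urokinase system 1 rose and 4 fell (0.08). Of all genes 8.49% rose and 9.55% fell. In the unmarked pairs 2 rose and 2 fell, and 1 rise and 2 falls were called in both tests. Egf fell by 1.24 ± 0.122 (adjusted p = 0.00153), and Lgr4, a receptor for R-spondins that strengthens Wnt signalling, by 1.92. Activins, TGF-beta and related brakes on growth rose for 3 of 21 and fell for 2 (0.12). In the unmarked pairs 6 rose and 0 fell, and 1 rise and 0 falls were called in both tests. Tgfb3 rose by 2.38 (1.74 in the unmarked pairs), and Inhba, the activin A subunit, fell by 1.02 without a call in the unmarked pairs (-0.68, adjusted p = 0.073). In the IGF and growth hormone axis 1 of 16 rose and 3 fell (-0.01, unmarked pairs 2 and 3). Igfbp1 (probe set 10774141), an insulin-repressed secreted binding protein, moved from 7.89, 7.21, 7.74 and 5.39 to 9.51, 11.55, 6.99 and 7.53. Animals 1, 2 and 4 were higher after PHx and animal 3 lower, and no call was made (1.84 ± 0.709, adjusted p = 0.142).

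Lipid synthesis genes fell. Fatty acid and triglyceride synthesis fell for 15 of 23 and rose for 0 (median -0.91, unmarked pairs 15 and 1), and cholesterol synthesis fell for 10 of 17 and rose for 0 (-0.72, unmarked pairs 11 and 0). The list median of cholesterol synthesis was -0.26 in animal 1, against -1.06, -0.82 and -0.68 in animals 2 to 4. Fdft1 (probe set 10784454), squalene synthase, went from 9.58, 9.92, 9.80 and 9.53 to 8.01, 8.02, 8.08 and 8.26. The groups lay more than 1 log2 unit apart. It fell by 1.62 ± 0.126 on the log2 scale (adjusted p = 0.000865). Mevalonate kinase (Mvk) fell by 0.78. Msmo1, a sterol methyl oxidase, fell by 1.96 (-1.46 in the unmarked pairs), with no call without animal 3 (-2.02) or 4 (-2.24) and a value of -1.32 without animal 2. Sterol sensing and LDL uptake genes fell for 3 of 13 and rose for 0 (-0.62, unmarked pairs 5 and 0), with Srebf2, the master regulator of sterol genes, at -0.82 and its escort Scap at -0.87. In fat synthesis Acacb, which makes the malonyl-CoA that restrains fatty acid oxidation, fell by 1.49 ± 0.0973 (adjusted p = 0.000577). The desaturases Fads1 and Fads2 fell by 1.30 and 1.28, and Mlxipl, the carbohydrate-responsive factor ChREBP, by 0.99. Fatty acid synthase (Fasn) differed by -0.41 and was not called (adjusted p = 0.0959). Scd, the stearoyl-CoA desaturase, was low in controls, at 5.35, 5.34, 5.63 and 5.80, and stood at 7.04, 9.37, 6.77 and 5.66 in remnants. Animals 1, 2 and 3 were higher after PHx and animal 4 lower, without a call (1.68, adjusted p = 0.110; unmarked pairs 0.50, adjusted p = 0.646).

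Fat storage and oxidation split. Fatty acid oxidation and PPAR alpha targets rose for 3 of 27 and fell for 6 (-0.12), and rose for 6 and fell for 3 in the unmarked pairs (0.03). Ppara, the nuclear receptor of fatty acid oxidation, fell by 2.45 ± 0.285 (adjusted p = 0.00264). Plin2, which coats lipid droplets, rose by 2.45, Angptl4, an inhibitor of lipoprotein lipase, by 1.88 and the thioesterase Acot2 by 1.63. Pdk4 (probe set 10860900), the kinase that shuts glucose carbon out of the citric acid cycle, went from 7.12, 7.58, 7.40 and 5.11 to 10.77, 6.82, 10.43 and 8.46. It was higher in animals 1, 3 and 4 and lower in animal 2. It was not called over 4 pairs (2.32, adjusted p = 0.0693) and rose in the unmarked pairs (3.19, adjusted p = 1.06e-06). Cpt1a, the gate of mitochondrial fatty acid uptake, differed by 0.22 (adjusted p = 0.616).

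Gluconeogenesis and glucose handling genes fell for 6 of 18 and rose for 1 (-0.34), and fell for 8 in the unmarked pairs. Glycogen phosphorylase (Pygl) fell by 1.34 ± 0.163 (adjusted p = 0.0031), Gckr, the inhibitor of glucokinase, by 1.72, and pyruvate carboxylase (Pc) and the glucose 6-phosphate carrier Slc37a4 also fell (-0.90 and -0.97). Pck1 and G6pc1, for the first committed and the final step of gluconeogenesis, were not called (-0.52 and -1.14, adjusted p = 0.133 and 0.246). G6pc1 ranged from 8.91 to 11.85 in controls and stood at 6.45 in the remnant of animal 2, against 9.55 to 10.05 in the others. In the urea cycle and amino acid breakdown 5 of 27 rose and 6 fell (-0.19, unmarked pairs 5 and 5). Got1, the cytosolic aspartate aminotransferase, rose by 2.43, argininosuccinate lyase (Asl) by 1.20, and Cth, which makes cysteine from cystathionine, fell by 2.96 ± 0.160 (adjusted p = 0.000448).

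Bile acid synthesis and transport genes fell for 12 of 21 and rose for 0 (-0.77), and fell for 11 in the unmarked pairs. Cyp7a1 (probe set 10875324), which sets the rate of bile acid production, was at 11.10, 10.00, 9.17 and 10.10 in controls and 8.16, 6.47, 6.36 and 8.27 in remnants. Controls differed by almost 2 log2 units, and no remnant reached the lowest control. It fell 6.86-fold (log2 -2.78 ± 0.255, adjusted p = 0.0013). Nr0b2, which encodes SHP, the bile acid induced repressor of Cyp7a1, also fell, from 8.81, 8.09, 8.35 and 7.85 to 5.88, 4.35, 4.91 and 4.36. The drop was 10.6-fold (log2 -3.40 ± 0.146, adjusted p = 0.000328). The remnants of animals 2 and 4 were under the array medians, which leaves its size uncertain. The exporter Abcc2 fell by 1.52 and the uptake carrier Slco1b2 by 1.01. Abcg8, a subunit of the biliary sterol exporter, fell by 1.24, with calls lost without animal 3 (-0.91) or 4 (-1.13), and its partner Abcg5 was not called (-0.42, adjusted p = 0.150). Drug-metabolising cytochromes fell for 13 of 28 and rose for 3 (-0.35, unmarked pairs 13 and 2), and phase II conjugation genes fell for 11 of 21 and rose for 0 (-0.50, unmarked pairs 13 and 0). Nr1i3, which encodes the drug sensor CAR, fell by 2.06, Cyp2a2 by 0.94, the glutathione transferase Gstt2 by 1.48 and the sulfotransferase Sult1c3 by 1.10, while Cyp3a9 rose by 1.35. Cyp2e1 differed by -0.18 (adjusted p = 0.262). Of 18 oxidative stress and metallothionein genes 5 rose and 6 fell (-0.20, unmarked pairs 4 and 5). Heme oxygenase 1 (Hmox1), which degrades heme, rose by 2.78 (2.18 without animal 2) and the zinc importer Slc39a14 by 1.33, while Gclm, the modifier subunit of glutathione synthesis, fell by 2.06. Mt2A, a metallothionein, rose by 1.44 over 4 pairs and was not called in the unmarked pairs (1.37, adjusted p = 0.118).

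Clock genes changed on both sides, 4 rising and 6 falling of 16 (-0.36), with 4 and 7 in the unmarked pairs. Nr1d1 (probe set 10746955), the repressor REV-ERB alpha, went from 8.45, 8.70, 8.69 and 8.31 to 6.25, 5.55, 6.48 and 5.31. The lowest control lay over 1 log2 unit above the highest remnant. It fell 6.24-fold (log2 -2.64 ± 0.193, adjusted p = 0.000776). Its paralogue Nr1d2 fell by 1.42, and the output factors Dbp and Tef fell too (-3.15 and -1.39). Nfil3, which opposes Dbp on its sites, rose by 1.76. Bmal1, of the positive arm, rose by 1.10 from controls of 3.62 to 4.17, under the array medians, so that the size is uncertain. Per1 was higher after PHx in animals 1 and 2 (0.97 and 0.71) and lower in animals 3 and 4 (-1.60 and -0.80). It was not called in 4 pairs (-0.18, adjusted p = 0.858) and fell in the unmarked pairs (-1.20, adjusted p = 0.00375). Controls and remnants were collected 6 h apart by the clock, and the effects of PHx and of time of day cannot be told apart.

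Hepatocyte transcription factors fell for 5 of 17 and rose for 1 (-0.26), with 3 and 0 in the unmarked pairs. Klf15, a factor of amino acid and glucose metabolism, fell by 1.61 ± 0.192 (adjusted p = 0.00292). Cebpa fell by 1.04, with its call lost without animal 1 (-1.21), 3 (-0.76) or 4 (-0.91), and Hnf4a was not called (-0.40, adjusted p = 0.174). Of the 14 hepatocyte markers 1 rose and 0 fell (-0.18, unmarked pairs 2 and 1). In tissue RNA, fewer cells of a type and less RNA per cell cannot be told apart.

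Markers of other liver cells moved little beside these changes. Kupffer cell and macrophage markers rose for 4 of 18 and fell for 0 (0.22, unmarked pairs 6 and 0), with summed linear signals of 3222 to 3980 in controls and 3932 to 4980 in remnants. The scavenger receptor Cd163 rose by 0.79 and cathepsin S (Ctss) by 0.74, and Hmox1, which hepatocytes make too, is on this list as well. Neutrophil and monocyte markers rose for 2 of 16 and fell for 0, near the share of all genes that rose (8.49%). In the unmarked pairs 0 were called, and 13 of the 16 had control means under the array medians. S100a9, a calcium-binding protein of neutrophils, was at 3.87 to 4.09 in controls and 4.53 to 4.81 in remnants (0.63, and 0.59 without animal 3, where the call ended). Liver endothelial markers rose for 4 of 13 and fell for 0 (0.08, unmarked pairs 3 and 1). Stellate cell and fibroblast markers rose for 2 of 15 and fell for 2 (-0.17, unmarked pairs 2 and 2). Acta2 and Tagln, of contractile cells, rose by 1.28 and 1.33, and Lrat, which stores retinol, fell by 1.21. Without animal 4 the calls of Acta2 and Tagln ended (1.24 and 1.15), and that of Tagln also without animal 1 (1.06). Lymphocyte markers had 0 of 15 called in limma in either test. Red cell markers differed most in animal 3. Hemoglobin beta (Hbb) was at 10.97, 10.18, 12.31 and 10.20 in controls and 11.33, 10.32, 9.99 and 9.78 in remnants. Of 8 red cell markers 1 rose and 0 fell over 4 pairs, and 0 rose and 3 fell in the unmarked pairs. Calls shared by both tests numbered 0. The part of blood content in the responses of animal 3 was not tested.

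Several of the largest changes lay outside these lists. Tnfrsf21, a death receptor, rose 17.8-fold (4.15), Tgm1, a transglutaminase, 15.5-fold (3.95) and Hcar2, the niacin receptor, 14.1-fold (3.82). Slc13a5 (probe set 10744687), the citrate importer, was at 4.52, 4.42, 4.43 and 4.32 in controls and 7.36, 7.57, 8.77 and 8.72 in remnants. Its controls were under the array medians, and its remnants were higher in animals 3 and 4 than in 1 and 2. It was called as a rise (fitted log2 3.68 ± 0.284, adjusted p = 0.000859), with the size uncertain for that reason. Gucy2c, a guanylyl cyclase receptor, also rose from under the medians (3.68 to 4.00), so that its fitted log2 of 3.93 is uncertain in size. Tubb6, a beta tubulin, rose by 3.24, Steap4, a metalloreductase, by 2.97, Nnmt, nicotinamide N-methyltransferase, by 2.86 and Alpl, alkaline phosphatase, by 2.65. On the falling side Hykk, a kinase of hydroxylysine breakdown, fell by 3.47 ± 0.185 (adjusted p = 0.000448), from 6.82 to 7.60 to levels of 3.41 to 3.94 under the array medians, which leaves the size uncertain. Aox3, an aldehyde oxidase, fell by 3.25, Upp2, a uridine phosphorylase, by 3.13 (3.76 without animal 2), Coq8a, of coenzyme Q synthesis, fell by 3.08, and Kynu, of tryptophan breakdown, fell by 2.75. Every one of these genes was called in the unmarked pairs too.

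Where animal 2 differed, it differed in many genes. Its response lay above those of all 3 other animals by at least 1 log2 unit in 187 genes and below them in 370, against at most 29 and 21 genes for any other animal. The following genes were chosen after their values were seen and have no test. Pfkfb3, which makes the activator of phosphofructokinase, stood at 8.69 in the remnant of animal 2 and at 4.65 to 5.03 in the others. Hjv, a coreceptor that drives hepcidin, stood at 4.23 against 7.47 to 7.86, and the VEGF receptor Kdr at 5.60 against 8.10 to 8.32. Abcg5, a gene whose level set the HF arrays apart, was at 8.78 in the remnant of animal 2, where the 3 other HF remnants had 7.68 to 8.87 and the CHO and EtOH arrays of the 6 h cohort 5.20 to 7.44. Other genes went otherwise. Scd was at 9.37 in that remnant, against 5.66 to 7.04 in the other HF remnants and 7.71 to 9.83 in CHO remnants. Tor3a (5.66) and Gpam (5.07) lay below the other HF remnants (7.19 to 7.72 and 6.73 to 7.10). What set this array apart was not tested.

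No gene passed the test of a difference between the HF and CHO responses. Between HF (2 unmarked animals) and CHO (3), 0 of 14506 genes differed (0.00%), with 771 genes at an unadjusted p under 0.05, and the smallest adjusted p was 0.286. Slc43a3, a purine transporter, rose by 1.06 in HF and 0.30 in CHO (difference 0.76, adjusted p = 0.286). Aldh9a1, an aldehyde dehydrogenase, fell by 0.45 in HF and 1.16 in CHO (0.70, adjusted p = 0.286). The HF values are those of the unmarked pairs; over 4 pairs they were 0.75 and -0.74. With so few animals these values do not show that the diets respond alike.

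Against EtOH (4 animals), 297 genes differed in their response (2.05%), 216 with a higher (1.49%) and 81 with a lower HF minus EtOH difference (0.558%). Of the 297, 147 were called as an HF response and 244 as an EtOH response, and in 201 the EtOH response was the larger in size. In 138 the HF and EtOH responses had opposite signs, counted whatever their size and whether or not each was called. The count fell to 76 without HF animal 3, to 70 without HF animal 4, to 167 without EtOH animal 2, to 190 with no pairing of arrays by animal, to 120 within the second scan day alone, and to 138 with all 36 animals, of which 94 were among the 297. Stac3 (probe set 10895915), known from muscle as a partner of the calcium release machinery, changed by -3.67, -1.78, -3.88 and -3.42 in HF animals 1 to 4 and by -1.50, 0.11, -0.11 and -0.02 in the EtOH animals. The difference between the unmarked HF pairs and EtOH was -3.27 ± 0.315 (adjusted p = 1.78e-06). The EtOH controls of 3 animals started at 3.91 to 4.03, under the medians of the HF arrays, and that of animal 1 at 5.91, against 7.63 to 8.45 in the HF controls. HF remnants of animals 1 and 3, at 4.11 and 4.28, were under these medians too. Nr1d1 fell by 2.61 in the unmarked HF pairs and rose by 0.79 in EtOH (difference -3.40, adjusted p = 0.000145), again from different control levels, 8.31 to 8.70 in HF and 4.92 to 6.44 in EtOH. Both genes also fell in CHO rats. Stac3 was at 7.95 to 9.10 in CHO controls and 4.54 to 5.07 in CHO remnants. Nr1d1 was at 8.06 to 8.89 and 5.43 to 6.52. The clock list of 16 had 3 genes with a higher and 6 with a lower HF minus EtOH difference.

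Several lipid genes fell less in the 2 unmarked HF animals than in EtOH animals, and Gpam, Pctp and, by a small margin, Nsdhl started from lower control levels in HF. In cholesterol synthesis 5 of 17 and in fatty acid and triglyceride synthesis 5 of 23 had a higher HF minus EtOH difference, and 0 a lower one (medians 0.56 and 0.45). The median response of cholesterol synthesis was -0.75 in the unmarked HF pairs, -0.84 in CHO and -1.54 in EtOH, so CHO lay near HF. For fatty acid and triglyceride synthesis the medians were -0.73, -1.24 and -1.39, with CHO nearer to EtOH. Gpam, which starts triglyceride synthesis, changed by -0.92 in the unmarked HF pairs and -3.88 in EtOH (difference 2.96 ± 0.349, adjusted p = 3.35e-05). Over all 4 HF pairs the change was -1.70 (adjusted p = 0.0354), with -1.52, -3.44, -1.19 and -0.64 in animals 1 to 4, against -4.16 to -3.62 in the EtOH animals. Its controls stood at 7.37 to 8.62 in HF, 7.81 to 8.56 in CHO and 9.47 to 9.89 in EtOH. Its remnants stood at 5.07 to 7.10 in HF, 6.39 to 7.22 in CHO and 5.32 to 5.99 in EtOH. Nsdhl, a sterol dehydrogenase, changed by -0.60 in the unmarked HF pairs and -1.87 in EtOH (difference 1.27, adjusted p = 0.000127). It was not called over 4 HF pairs (-1.02, adjusted p = 0.0754), and animal 2, at -2.38, was lower than every EtOH animal (-2.14 to -1.73). Nsdhl controls were at 10.79 to 11.10 in HF, 10.73 to 11.30 in CHO and 11.14 to 11.33 in EtOH. Its remnants were at 8.72 to 10.35, 10.13 to 10.30 and 9.15 to 9.60. Pctp, a phosphatidylcholine transfer protein, changed by -0.71 in the unmarked HF pairs and -2.06 in EtOH (difference 1.35, adjusted p = 9.22e-05), with -1.70 in HF animal 2. Pctp controls were at 6.32 to 6.99 in HF and 7.55 to 7.75 in EtOH. Its remnants were alike, at 5.29 to 5.97 and 5.52 to 5.72. Pdk4 rose by 3.19 in the unmarked HF pairs and differed by -0.12 in EtOH (3.31, adjusted p = 0.000226). EtOH controls were already at 9.25 to 9.51, where HF controls had 5.11 to 7.58. CHO rats moved as the unmarked HF rats did, with Pdk4 at 6.28 to 7.72 in controls and 9.64 to 11.20 in remnants. Tor3a, a torsin ATPase, rose by 2.09 in the unmarked HF pairs and fell by 1.15 in EtOH (3.24, adjusted p = 7.88e-05). It was not called over 4 HF pairs (1.31, adjusted p = 0.079), and its change in animal 2 was -0.45. Tor3a controls were at 5.51 to 6.11 in HF and 7.63 to 7.92 in EtOH. In CHO they were at 5.06 to 6.80, with remnants of 6.89 to 8.01, higher as in the unmarked HF pairs. With all 36 animals the calls of Pdk4 (2.44) and Nsdhl (0.84) ended.

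**Figure D4:**
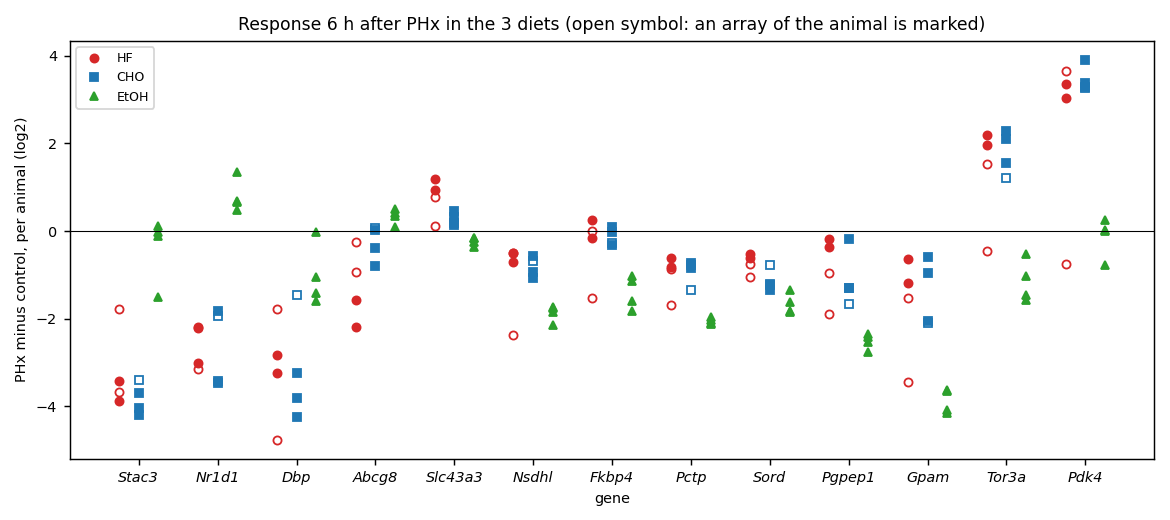
Log2 difference, PHx minus control, per animal (y axis) for 13 genes (x axis) in HF (circles), CHO (squares) and EtOH (triangles) rats 6 h after PHx, with open symbols for animals that have a marked array. The filled EtOH symbols lie well apart from the filled HF and CHO symbols in Stac3, Nr1d1, Gpam and Tor3a, and the open HF circle of animal 2 often lies away from the other HF circles, as in Pdk4 (-0.76).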

How the data were processed

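Total liver RNA of 36 rats was measured on 72 Affymetrix rat gene arrays. The deposited log2 signals were made by the authors with RMA in Affymetrix Expression Console, per the submitters' processing notes, and a batch-corrected log2 table was used, per the file headers. It differed from the uncorrected value table by 1 constant per probe set and scan day (largest departure 9.83e-05), so differences within an animal are the same in both. Of 29214 probe sets, 15310 had 1 gene symbol, 323 had several, and the annotation lists none for 13581. Each of 14506 genes was taken from 1 probe set, for 527 genes the one with the highest mean over all arrays. The response was fitted with limma 3.58.1 in R 4.3.3, with the animal as block, and p-values were adjusted over all genes at 0.05. The pairing comes from the animal labels. The deviations of the control and PHx array of 1 animal correlated at 0.261, -0.121, 0.1 and 0.209. Between arrays of different animals the values ran from -0.362 to 0.318, so these correlations do not single out the pairs. The number of arrays limits the precision. Named genes were the 20 largest rises and falls, the 5 smallest p-values of each list in either test, the 10 smallest of each diet difference, and a set of regulators. Pfkfb3, Hjv and Kdr lie outside this rule. The members and the 48 lists (940 of 1030 genes measured) were chosen with earlier results of these data known. Alternatives changed the normalization, filters, block, variance model and animals used, and the scan day restriction of the diet differences was chosen after seeing the data. Fits were tested on simulated data.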

Additional observations from a re-analysis of the deposited data

Results flagged for a closer look

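The remnant of animal 2, the marked PHx array, lay far from the 3 others in many genes, as did the 2483 genes lower by at least 1.5-fold in that animal. Genes were flagged by the gap between 1 sample and the rest, which chance alone passes in about 1 in 20 groups. The rule was applied to the control levels, PHx levels and differences of all genes described in the text, so many single flags may be chance. By this rule the PHx level of animal 2 was low for Ccnd1 (6.50), G6pc1 (6.45), Nsdhl (8.72), Orm1 (11.02) and Rpl4 (11.13). It was high for Egr1 (8.22), Il1rn (9.84), Junb (8.75), Pygl (8.91) and Srm (10.05). Its difference between PHx and control stood apart for Ccnd1 (-2.54), Nsdhl (-2.38) and Pdk4 (-0.76). Hjv (PHx level 4.23), Kdr (5.60) and Pfkfb3 (8.69, with a difference of 4.01) were chosen because animal 2 stood apart in them, so that the chance rate does not apply to them.

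The other animals, and the control of animal 2, passed the same rule in fewer genes, and these flags may be chance. In the differences these were animal 1 for Brix1 (1.17) and animal 3 for Mt2A (1.23) and Plin2 (3.65). In the controls they were animal 1 for Angptl4 (6.87), animal 2 for Gstt2 (9.65), Rpa1 (7.47) and Slc43a3 (9.03), and animal 4 for Acta2 (7.30), Hp (12.45), Il1rn (5.35), Odc1 (8.65) and Pcna (6.29).

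The HF and EtOH responses differed by the test of the difference itself in the following genes. The HF minus EtOH difference was negative for Abcg8 (-2.22), Dbp (-2.01), Nr1d1 (-3.40), Nr1d2 (-1.47), Per1 (-2.01), Pygl (-0.80) and Stac3 (-3.27). It was positive for Aldh9a1 (0.80), Gpam (2.96), Inhba (1.40), Msmo1 (2.33), Nfil3 (1.47), Nsdhl (1.27), Pctp (1.35), Pdk4 (3.31), Plin2 (1.93), Slc43a3 (1.29) and Tor3a (3.24).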

How the results depend on the processing

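The count of genes changed in 4 pairs was 2617. It was 4085 in the fit on all 36 animals, 325 on the first scan day alone and 2965 on the second, and from 1177 to 3376 when 1 animal was left out. For the 2 unmarked pairs it was 2800, and 1214 to 1706 with 1 animal left out. Without the pairing of arrays by animal (no replicate block) the counts were 2848 and 2531, and the HF minus EtOH count was 190 against 297. That count was 138 with all 36 animals, 120 on the second scan day alone (chosen after seeing the data), and 70 to 290 with 1 animal left out. The HF minus CHO count was 0, with 1 gene called on the second scan day alone (chosen after seeing the data) and 0 to 1 with 1 animal left out. Of the 127 named genes called in 4 pairs, 13, 0, 18 and 13 lost the call without animals 1 to 4, and 0 changed sign. A gene that moves the same way in all 4 animals cannot change sign when 1 is left out. That held for all but 7 of the called genes, so this 0 is no separate support. Among genes not called, Alb was at 0.0 after quantile normalization. Values with 1 animal left out ran from -0.30 to 0.67 for Egr1 (negative without animal 2), -0.93 to 0.11 for Kdr (positive without animal 2), -0.87 to 0.03 for Hbb (positive without animal 3) and -0.56 to 0.29 for Per1 (0.29 without animal 3 and 0.03 without animal 4). Egr1 was at -0.13 with array weights. On the second scan day alone Egr1 was at -0.40, Kdr at 0.31 and G6pc1 at 0.16, and on the first Hbb at 0.25 and Per1 at 0.84. The cause was not tested.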
